A study of Mus musculus with 8 samples.

Results

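The mitochondrial chromosome of the mouse carries 37 genes, and all 37 had a value in at least 1 of the 8 libraries described here, among 33848 genes with a value in all. They were taken as the genes on chromosome MT whose names start with mt-. Of these, 13 encode mRNAs (7 for subunits of complex I, 1 for complex III, 3 for complex IV and 2 for complex V of the respiratory chain), 2 encode ribosomal RNAs and 22 encode transfer RNAs. 28 genes lie on the plus strand of the annotation and 9, mt-Nd6 and 8 tRNAs, on the minus strand. RNA came from leptotene and zygotene spermatocytes, sorted by flow cytometry from 2-month-old C57BL/6 mice, either Bend2 wild-type (WT) or Bend2 knockout (KO). There were 2 libraries in each of 4 groups, one for each genotype at each stage, and the labels describe the KO allele no further. The design text speaks of 3 replications. Since no label assigns libraries to individual mice, the spread behind every p-value here is that between libraries, and it may be technical.

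Leptotene and zygotene are the stages of meiotic prophase in which chromosomes form axes and begin to synapse. Mitochondrial genes are transcribed from both strands of a circular DNA as long precursors, and in most places tRNAs lie between the other genes, so that cutting out the tRNAs releases the rRNAs and mRNAs. Both rRNAs and all tRNAs serve translation inside the mitochondrion, and the mRNAs encode core subunits of the respiratory complexes, whose remaining subunits are made from nuclear genes. After cutting, the rRNAs and most mRNAs are given tails of adenines, whereas tRNAs are given the letters CCA, and the ND6 mRNA of human cells is known to lack a tail.

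The 8 libraries held 6.82 to 9.45 aligned gigabases, and 73.8% to 86.3% of their TPM (a level scaled to transcript length and library size) lay in annotated genes. Single-exon transcripts that match no annotated transcript took 9.59% to 13.8% of the TPM in 4 libraries (the first WT and the second KO library of each stage) and 21.2% to 23.0% in the other 4, so each group holds 1 library of either kind. All 12 markers of leptotene and zygotene cells had a value in every library, with a summed scaled TPM of 363 to 745. Markers of pachytene cells and spermatids summed to 5110 to 9439 in the WT libraries and to 653 to 1435 in the KO libraries. Markers of spermatogonia summed to 211 to 311 in WT and 453 to 689 in KO, and macrophage markers to 135 to 490 in WT and 27.1 to 58.9 in KO. Cd68 had no value in either KO leptotene library, and Cd14 had none in the second of them. Summed levels in the WT and KO libraries did not overlap for these 3 lists, of which 12 of 12, 7 of 10 and 5 of 8 markers were called in KO against WT averaged over both stages (limma, all lower, 6 higher and 1 lower, and all lower). Their part in the results on genotype below was not tested. Within a genotype, leptotene and zygotene libraries of the same number went together, with correlations of their deviations from the group means of 0.19 in WT and 0.11 in KO, against -0.09 between WT and KO at each stage. Summed erythroid markers were 126 and 251 in the first WT libraries of the stages, 2533 and 2664 in the second, 990 and 2041 in the first KO libraries and 8.2 and 7.74 in the second. The labels do not say whether such libraries share mice, and if they do, values given with n = 4 stand for 2 pairs. The level of Bend2 itself was not used here, because no gene with a value carries that symbol.

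Some of the results depend on sequence that 2 places in the genome share, or on tRNAs that are short and were not in every assembly. The sequences of 4 tRNA genes are given because these carry the results on tRNAs below, with the anticodon in capitals, 5′ to 3′ on the gene's strand (GENCODE M21 transcripts, GRCm38). mt-Ta (alanine, chrMT:5018-5086, minus strand) and its neighbour mt-Tn (asparagine, chrMT:5089-5159, minus strand) were missing from some assemblies, mt-Ts1 (serine, chrMT:6870-6938, minus strand) had the highest level of the tRNAs, and mt-Tl2 (leucine, chrMT:11671-11741, plus strand) lies in a run of 3 tRNAs that were missing from several assemblies.
mt-Ta: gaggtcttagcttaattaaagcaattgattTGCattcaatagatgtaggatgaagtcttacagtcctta
mt-Tn: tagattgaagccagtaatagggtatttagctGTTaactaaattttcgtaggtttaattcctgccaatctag
mt-Ts1: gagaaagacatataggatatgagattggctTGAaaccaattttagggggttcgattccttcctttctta
mt-Tl2: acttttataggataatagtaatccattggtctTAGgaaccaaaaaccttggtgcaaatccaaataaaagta

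Stretches of mt-Nd3 and mt-Co1 are shown beside the same stretches of their nuclear copies on chromosome 1 (minus strand), because they show how few letters separate the pairs. Capitals mark the base that differs, written T3C for mt-Nd3 and A1066T for mt-Co1, with the mitochondrial base first and positions counted from 1 at the 5′ end of the mitochondrial gene.
mt-Nd3: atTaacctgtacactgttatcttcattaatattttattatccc
Gm28438: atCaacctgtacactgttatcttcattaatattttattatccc
mt-Co1: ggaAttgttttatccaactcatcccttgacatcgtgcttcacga
Gm29216: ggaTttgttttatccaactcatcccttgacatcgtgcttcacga

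The mitochondrial genes together took 3.66% to 8.68% of the TPM of a library, not counting their nuclear copies. Those copies, described below, summed to a further 14062 to 32479 TPM in a library. The share of the mitochondrial genes was 8.1% and 3.66% (WT) against 6.78% and 8.68% (KO) at leptotene, and 5.35% and 5.39% (WT) against 4.78% and 7.52% (KO) at zygotene. WT and KO libraries overlapped, with the lowest and one of the higher shares both in WT leptotene. The mean was 5.62% ± 1.84 (SD, n = 4) in WT and 6.94% ± 1.64 (SD, n = 4) in KO, a difference within the spread between libraries (two-sided exact permutation test of 4 against 4 libraries, p = 0.343, adjusted p = 0.643 over 18 tests of summary measures). Leptotene and zygotene libraries also overlapped, at 6.81% and 5.76% on average (exact permutation p = 0.429, adjusted p = 0.643). As a share of the covered bases, the mitochondrial chromosome took 2.75% to 5.35%, without a difference by genotype that passed (exact permutation p = 0.286, adjusted p = 0.643). Such a test of 4 against 4 libraries has 70 arrangements and cannot give a p under 0.0286, and it takes libraries of both stages as independent. With same-numbered libraries of a genotype as pairs, 2 against 2 pairs cannot give a p under 0.333. In bulk RNA, fewer cells of a type and less RNA per cell cannot be told apart.

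Of the mitochondrial TPM, 91.9% to 94.9% was in the 13 mRNAs, 2.19% to 5.81% in the 2 rRNAs and 2.26% to 3.41% in the 22 tRNAs. mt-Co1, a catalytic subunit of complex IV, had the highest level in every library, from 11824 to 31096 TPM. The next were mt-Atp6 of complex V (3599 to 9475 TPM), mt-Co2 and mt-Co3 of complex IV (3364 to 7814 and 3346 to 7808), mt-Cytb of complex III (2889 to 6584) and mt-Nd1 of complex I (2381 to 6240.4). Ranges of these 5 genes overlapped one another, but these TPM leave out nuclear copies, which mt-Atp6, mt-Co2 and mt-Co3 have on chromosome 1. With those copies added, mean WT shares of the summed mRNA TPM were 15.6%, 13.3% and 13.2% for these 3. They were 6.14% for mt-Cytb, 5.6% for mt-Nd4 and 5.27% for mt-Nd1. The plot of levels by gene shows that the mRNAs were high or low together from library to library, with WT leptotene 2 low and WT leptotene 1 and KO leptotene 2 high. Across the 8 libraries, the 66 pairs of the 12 mRNAs other than mt-Nd3 had correlations of log2 scaled levels between 0.68 and 1.0 (Pearson's r, median 0.94). This is a description, and why they moved together was not tested. For mt-Rnr2 with the same mRNAs r lay between -0.05 and 0.48, and for mt-Rnr1 between -0.43 and 0.14.

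**Figure D1:**
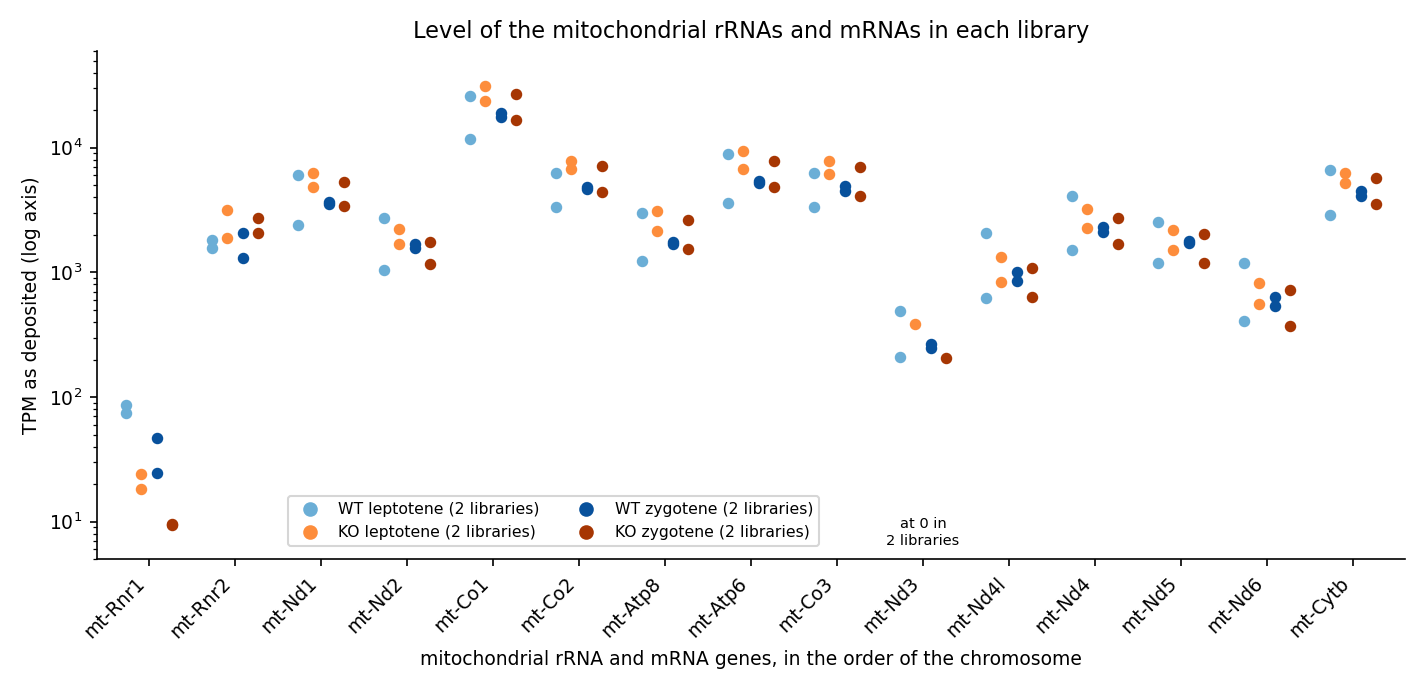
TPM as deposited (log axis) of the 2 rRNAs and 13 mRNAs of the mitochondrial chromosome in each of 8 libraries, coloured by group. mt-Rnr1 lies below all other genes shown, at 9.41 to 86.2 TPM, with the KO libraries of each stage under the WT libraries of that stage, and mt-Nd3 was listed at 0 in 2 KO libraries.

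mt-Rnr1, which encodes the 12S RNA of the small mitochondrial ribosomal subunit (chrMT:70-1024, plus strand), was, apart from the tRNA gene mt-Ta, the only mitochondrial gene called between the genotypes. Its level after scaling the libraries to one another (scaled TPM) was 75.8 and 82.6 (WT) against 25.1 and 18.4 (KO) at leptotene, and 23.2 and 41.5 (WT) against 10.1 and 8.91 (KO) at zygotene. At each stage both KO libraries lay below both WT libraries, while the higher KO leptotene library exceeded the lower WT zygotene library. The means were 79.2 ± 4.76 in WT and 21.8 ± 4.74 in KO leptotene and 32.3 ± 12.9 and 9.52 ± 0.859 in zygotene (SD, n = 2 each). Averaged over both stages, the level of mt-Rnr1 in the libraries fell by 1.72 ± 0.23 (SE) on the log2(scaled TPM + 1) scale in KO against WT (limma, adjusted p = 0.00553). How far this level follows the amount of 12S RNA in the cells was not tested. Within leptotene the change was -1.83 ± 0.32 (limma, adjusted p = 0.0391) and within zygotene -1.61 ± 0.32, which did not pass (limma, adjusted p = 0.0651). In zygotene against leptotene, mt-Rnr1 changed by -1.32 ± 0.32 in WT and -1.10 ± 0.32 in KO. Neither stage change passed (limma, unadjusted p = 0.00305 and 0.00836, adjusted p = 0.880 and 0.711). The leptotene call did not hold in 7 of 8 fits that left out 1 library (limma, adjusted p from 0.0482 without KO zygotene 2 to 0.230 without WT leptotene 2) and in 6 of 15 other alternatives. The averaged call held in all 8 fits that left out 1 library and in 15 of 16 other alternatives. Taking same-numbered libraries of a genotype as pairs, it held with an estimated correlation within pairs (limma, correlation 0.23, adjusted p = 0.00977) and did not hold with the pairs as units (limma, 2 pairs a genotype, adjusted p = 0.0542).

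mt-Rnr2 encodes the 16S RNA of the large subunit (chrMT:1094-2675, plus strand). Its TPM was 1815 and 1561 (WT) against 3159 and 1879 (KO) at leptotene, and 2052 and 1305 (WT) against 2755 and 2052 (KO) at zygotene. The genotypes overlapped, and the change in KO averaged over both stages was 0.63 ± 0.33 on the log2 scale (limma, adjusted p = 0.280). mt-Rnr2 exceeded mt-Rnr1 by 18.1-fold to 83.2-fold in the WT and by 102-fold to 293-fold in the KO libraries. The ratio of 12S to 16S coverage was 4.11% and 5.52% (WT) against 0.759% and 0.978% (KO) at leptotene, and 1.2% and 3.62% (WT) against 0.341% and 0.469% (KO) at zygotene. All 4 KO values lay below all 4 WT values, with WT zygotene 1 and KO leptotene 2 next to each other, and the means were 3.61% ± 1.8 (SD, n = 4) and 0.637% ± 0.287 (SD, n = 4) (two-sided exact permutation p = 0.0286, the smallest possible, adjusted p = 0.257 over 18 tests). The difference was -1.93 percentage points among the 4 libraries with few unannotated single-exon transcripts and -4.02 among the 4 with many. Between stages the ratio overlapped, at 2.84% in leptotene and 1.41% in zygotene (exact permutation p = 0.229, adjusted p = 0.643). Whether ribosomal RNA was removed or poly(A) RNA selected is not given in the sources used here. The values of mt-Rnr1 and mt-Rnr2 and their ratio are therefore levels in the libraries. They cannot be read as amounts of the 2 rRNAs in the cells.

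No mitochondrial mRNA passed the test in any of the 6 comparisons (KO against WT at leptotene, at zygotene and averaged, zygotene against leptotene in WT and in KO, and the interaction). Unadjusted p under 0.05 was reached by 0 of 13 as well. Beside mt-Rnr1, only the alanine tRNA gene mt-Ta was called, and it is described with the tRNAs. At leptotene 2 of the 35 members that passed the filter on low values were called, mt-Rnr1 lower and mt-Ta higher, against 1.32% of all 23031 genes tested (0.113% higher and 1.21% lower). At zygotene 1 of 35 was called, mt-Ta lower (background 0.868%, and 0.712% lower), averaged over both stages 1 of 35, mt-Rnr1 lower (background 8.82%, 2.22% higher and 6.6% lower), between stages 1 of 35 in WT (background 0.00868%) and 1 of 35 in KO (background 0.0217%), and for the interaction 1 of 35 (background 0.013%). Averaged over the stages, the 12 mRNAs other than mt-Nd3 had log2 changes in KO from -0.03 (mt-Nd4l) to 0.55 (mt-Co2), with standard errors of 0.33 to 0.75, beside a median of -0.06 over all genes. These changes depended on single libraries. Without WT leptotene 2 the change was 0.30 for mt-Co2, 0.20 for mt-Co1, 0.23 for mt-Co3, 0.11 for mt-Nd1, 0.10 for mt-Atp6, 0.07 for mt-Atp8 and 0.0019 for mt-Cytb. Without WT leptotene 1 it was 0.79, 0.82, 0.73, 0.83, 0.79, 0.76 and 0.64 for the same genes in that order, and the other 5 mRNAs lay on either side of 0 between these fits. In zygotene against leptotene all 12 were below 0, between -0.43 and -0.06 in WT and between -0.48 and -0.26 in KO, and none passed (limma, adjusted p = 1). In simulated data the same test found 14% of genes changed by 2-fold and 72% of those changed by 4-fold for the averaged comparison, and at leptotene 0% and 34%.

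The make-up of the mRNA pool could be compared without the swings shared by all mRNAs, by dividing the TPM of each member by the summed mitochondrial mRNA TPM of its library. This measure was added after the values had been seen. On it, 12 of 35 members did not overlap between the 4 KO and the 4 WT libraries, 11 lower and 1 higher in KO, beside 11% of all genes on the same scale (10.4% lower and 0.634% higher), and on scaled TPM 0 of 35 did so, beside 17.7% (10.7% lower and 7.01% higher). The division takes out the swing that the mitochondrial mRNAs share, while it brings that swing into nuclear genes. The 11% is therefore no like-for-like background for the 12 of 35. The 11 lower were mt-Rnr1, the complex I mRNAs mt-Nd2, mt-Nd3, mt-Nd4, mt-Nd4l, mt-Nd5 and mt-Nd6, and the tRNAs mt-Tm, mt-Tc, mt-Ty and mt-Te, and the 1 higher was mt-Co1. For mt-Nd3, 2 of the KO values are zeros, in KO leptotene 1 and KO zygotene 2. Its near-identical copy Gm28438 had 324 and 327 TPM there, so these zeros do not show a missing RNA. Shares add up to a fixed total, so a lower share of some mRNAs is tied to a higher share of others.

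Complex I takes electrons from NADH, and its 7 mitochondrial subunits form the core of its membrane arm. mt-Nd2 had a share of 3.57% and 3.13% (WT) against 2.7% and 2.73% (KO) at leptotene, and 3.15% and 3.35% (WT) against 2.66% and 2.48% (KO) at zygotene. All KO libraries lay below all WT libraries, and the means were 3.3% ± 0.207 (SD, n = 4) and 2.64% ± 0.111 (SD, n = 4). mt-Nd5, a proton-pumping subunit at the far end of the arm, had a share of 3.32% and 3.54% (WT) against 2.43% and 2.66% (KO) at leptotene, and 3.47% and 3.5% (WT) against 2.74% and 2.87% (KO) at zygotene. Again the genotypes were apart, with means of 3.46% ± 0.0937 (SD, n = 4) and 2.68% ± 0.185 (SD, n = 4). mt-Nd4 and mt-Nd4l overlap by a few bases and are carried on 1 mRNA. For mt-Nd4 the share was 5.38% and 4.49% (WT) against 3.64% and 3.95% (KO) at leptotene, and 4.24% and 4.51% (WT) against 3.84% and 3.83% (KO) at zygotene, and for mt-Nd4l it was 2.74% and 1.86% (WT) against 1.34% and 1.63% (KO) at leptotene, and 2.03% and 1.67% (WT) against 1.46% and 1.53% (KO) at zygotene. WT leptotene 1 was highest in both, and the KO-to-WT ratio of the mean shares was 0.820 and 0.720. mt-Nd6, the only mRNA encoded on the minus strand, had a share of 1.56% and 1.2% (WT) against 0.89% and 1.0% (KO) at leptotene, and 1.29% and 1.06% (WT) against 0.855% and 1.02% (KO) at zygotene, with a ratio of 0.736. For each of these 5 mRNAs the exact permutation test gave p = 0.0286, the smallest possible, and an adjusted p of 0.0571 over 12 mRNAs, which did not pass.

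mt-Nd1 did not share this pattern although it encodes a subunit of the same complex. Its share was 7.99% and 7.08% (WT) against 7.71% and 7.61% (KO) at leptotene, and 7.18% and 7.27% (WT) against 7.8% and 7.52% (KO) at zygotene, the genotypes overlapped, and the ratio of KO to WT means was 1.04 (exact permutation p = 0.229, adjusted p = 0.305). mt-Nd1 lies directly after the 16S RNA, apart from the tRNA between them, upstream of the other complex I genes of the plus strand. Relative to mt-Nd1, the summed TPM of the 5 complex I mRNAs above came to 208% and 201% (WT) against 143% and 157% (KO) at leptotene, and 198% and 194% (WT) against 148% and 156% (KO) at zygotene. KO libraries lay at 143% to 157% and WT libraries at 194% to 208%, without overlap. The genes on both sides of this ratio were picked for the pattern of their shares, so it restates those shares and no test is given. mt-Nd3 was listed at 0 in KO leptotene 1 and KO zygotene 2 and had 206 to 486 TPM in the other 6 libraries, so its share was not tested.

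Complex IV hands electrons to oxygen, and its 3 mitochondrial subunits form its catalytic core. The share of mt-Co1 was 34.2% and 35.2% (WT) against 38% and 37.9% (KO) at leptotene, and 36% and 37.2% (WT) against 38.1% and 38% (KO) at zygotene. The KO values lay within 37.9% to 38.1%, above all WT values, of which WT zygotene 2 came nearest, and the ratio of the means was 1.07 (exact permutation p = 0.0286, adjusted p = 0.0571). For mt-Co2 and mt-Co3 the ratios were 1.09 and 1.04 and the genotypes overlapped (exact permutation, adjusted p = 0.214 and 0.53). mt-Cytb, the only mitochondrial subunit of complex III, had a ratio of 0.935 with overlapping genotypes (exact permutation, adjusted p = 0.196). mt-Atp6 and mt-Atp8, subunits of the ATP synthase whose reading frames overlap, had ratios of 1.02 and 0.999 and overlapped too.

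**Figure D2:**
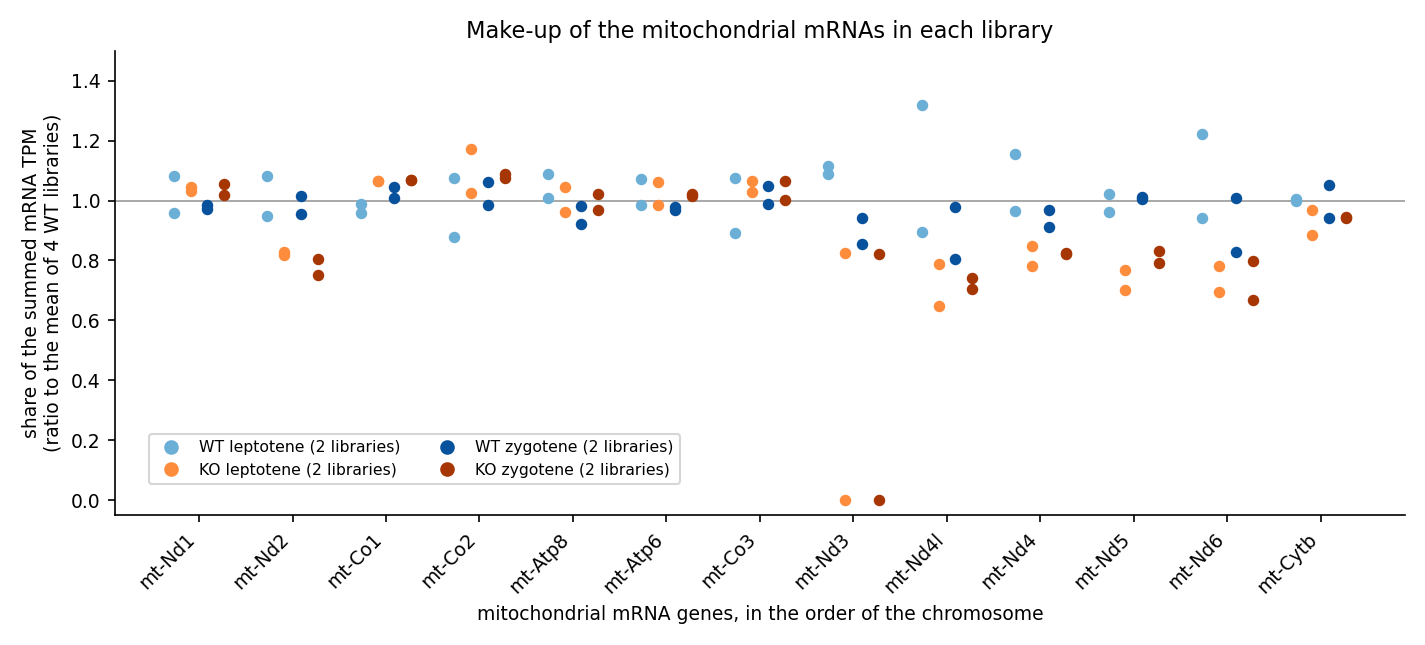
Share of each mRNA in the summed mitochondrial mRNA TPM of its library, divided by the mean share of the 4 WT libraries (vertical axis, ratio without unit), for 8 libraries coloured by group. The KO libraries lie below every WT library for mt-Nd2, mt-Nd3, mt-Nd4l, mt-Nd4, mt-Nd5 and mt-Nd6 and above for mt-Co1, and the genotypes overlap for mt-Nd1 and the other mRNAs. mt-Nd3 was listed at 0 in 2 of the KO libraries, which does not show a missing RNA.

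Between complexes, the summed TPM of the complex I mRNAs relative to that of the complex IV mRNAs was 49.8% and 39.8% (WT) against 31.8% and 35.2% (KO) at leptotene, and 39.8% and 39% (WT) against 34.5% and 33.2% (KO) at zygotene. Every KO library was below every WT library, of which WT leptotene 1 stood highest, and the means were 42.1% ± 5.17 (SD, n = 4) and 33.7% ± 1.47 (SD, n = 4) (two-sided exact permutation p = 0.0286, adjusted p = 0.133 over 14 tests). The complex I sum includes mt-Nd3, whose zeros in KO leptotene 1 and KO zygotene 2 lower the ratio there (31.8% and 33.2%). In the other libraries mt-Nd3 made up 0.470% to 0.637% of the mRNA TPM. The ratios between complexes were added after the shares had been seen and partly restate them. The difference was -10.6 percentage points among the 4 libraries with few unannotated single-exon transcripts, -6.20 among the 4 with many, and -7.52 when the chromosome 1 copies were added to the mitochondrial genes. mt-Cytb relative to complex IV was 17.1% and 15.6% (WT) against 14.2% and 13.4% (KO) at leptotene, and 16.5% and 14.4% (WT) against 14.1% and 14% (KO) at zygotene, again without overlap and with the same p-values. For complex V relative to complex IV the genotypes overlapped (exact permutation p = 0.486, adjusted p = 0.756). None of these ratios differed between stages by a test that passed.

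The strands were compared through mt-Nd6, which is transcribed from the opposite strand to the other 12 mRNAs. Relative to the other mRNAs, the coverage of mt-Nd6 was 1.59% and 1.22% (WT) against 0.898% and 1.01% (KO) at leptotene, and 1.31% and 1.07% (WT) against 0.862% and 1.03% (KO) at zygotene. The genotypes did not overlap, although WT zygotene 2 and KO zygotene 2 were close, and the means were 1.3% ± 0.218 (SD, n = 4) and 0.95% ± 0.0827 (SD, n = 4) (two-sided exact permutation p = 0.0286, adjusted p = 0.257). Stages overlapped (exact permutation p = 0.600, adjusted p = 0.771). The coverage ratio restates the share of mt-Nd6 given above and is no separate result. Of the plus-strand mRNAs, mt-Nd4l, mt-Nd5, mt-Nd2 and mt-Nd4 had KO-to-WT ratios of shares of 0.720, 0.774, 0.800 and 0.820, beside 0.736 for mt-Nd6. Those other than these and mt-Nd3 had ratios from 0.935 to 1.09. A lower share in KO was thus not particular to the minus strand. mt-Nd6 overlaps the end of mt-Nd5 on the other strand by a few bases. The StringTie command in the file headers has no strand option, while over 99.9% of the unannotated single-exon transcripts carry a strand, so how far reads of the 2 strands were kept apart was not tested.

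**Figure D3:**
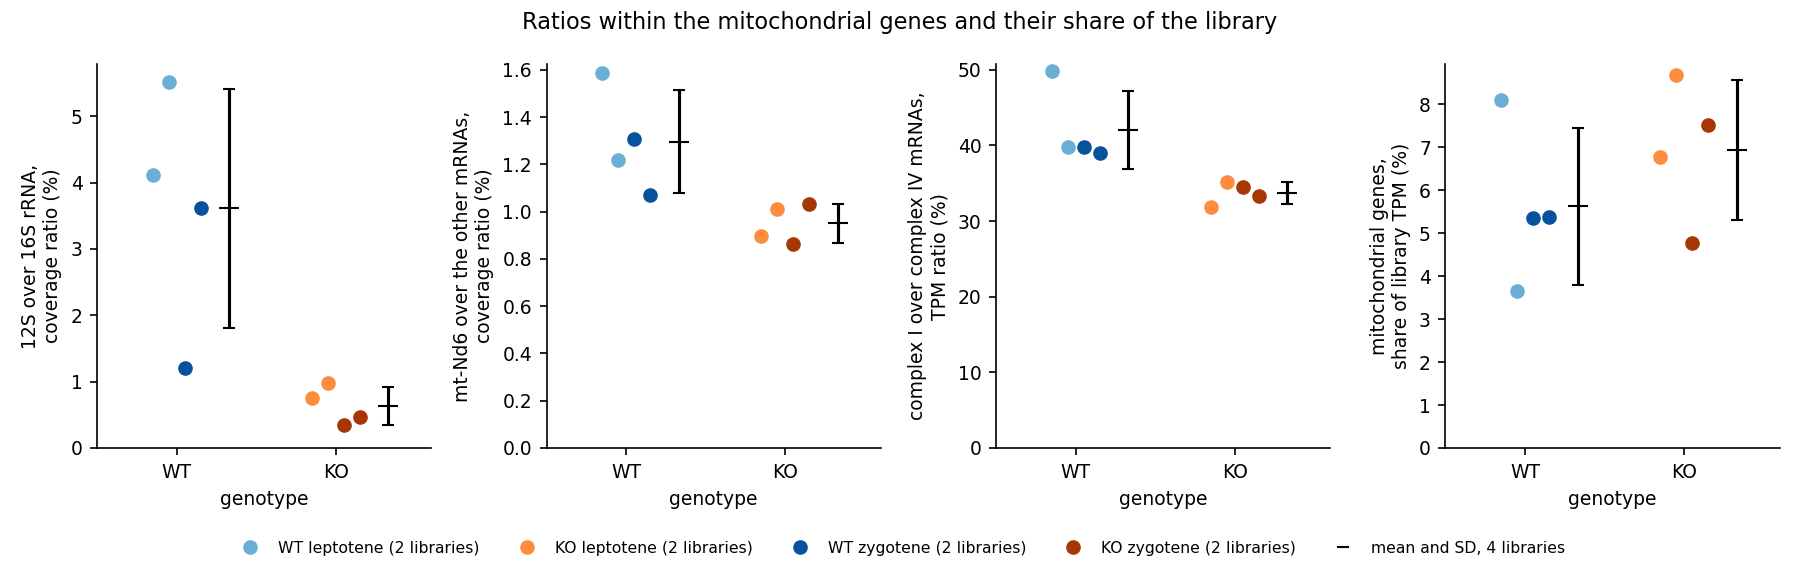
From left to right, the 12S to 16S rRNA coverage ratio, the coverage of mt-Nd6 relative to the other mRNAs, the TPM of complex I relative to complex IV mRNAs and the share of the mitochondrial genes in library TPM (all in %), for each of 4 WT and 4 KO libraries, with the mean and SD in black. The genotypes do not overlap in the first 3 and overlap in the fourth, where the means are 5.62% and 6.94%.

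The 22 tRNAs carry amino acids to the mitochondrial ribosome and also mark the places where the precursors are cut. In these assemblies 13 to 19 of them had a value in a library, up to 2 were listed at 0 and 1 to 9 were not in the assembly at all, with the most missing from KO zygotene 1. 12 of the 22 had a value in all 8 libraries. mt-Ts1, the serine tRNA that lies against the end of mt-Co1 on the other strand, took 57.8% to 80.3% of the tRNA TPM. Its TPM was 1549.7 and 775 (WT) against 1463 and 1553 (KO) at leptotene, and 1049.5 and 921 (WT) against 863 and 1302 (KO) at zygotene. These values followed mt-Co1, of whose TPM they made up 4.84% to 6.55%, and the genotypes overlapped. mt-Ts1 and mt-Co1 overlap at their ends, and how far reads of their strands were kept apart was not tested. Every other tRNA stayed at or under 175 TPM.

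mt-Te (glutamate), which directly follows mt-Nd6 on the chromosome, had 66.2 to 175 TPM, mt-Tc (cysteine) 49.7 to 145 and mt-Ty (tyrosine) 39.4 to 128. mt-Tl1, the leucine tRNA between 16S and mt-Nd1, had 25.5 to 89.6 TPM. mt-Ti, mt-Tm, mt-Tw and mt-Tg, for isoleucine, methionine, tryptophan and glycine, lay between 0.461 and 27.2 TPM, and mt-Td, mt-Tk and mt-Tt, for aspartate, lysine and threonine, between 0.539 and 6.28. Of these 12, 0 passed in any comparison. mt-Tp (proline) and mt-Tf (phenylalanine), which flank the control region, were at or under 0.138 TPM where they had a value (2 libraries and 1) and did not pass the filter.

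mt-Ta was in the assembly of both KO leptotene libraries (29.5 and 35.1 TPM) and both WT zygotene libraries (38.7 and 32.4), and of none of the other 4. Each group therefore has it in both libraries or in neither, and limma called it in all comparisons except the average over stages (adjusted p between 0.00112 and 0.0354). Without 1 library the call was lost in 5 of 8 fits at leptotene and in 3 of 8 at zygotene. With same-numbered libraries of a genotype as pairs and the pairs as units, it was lost in both stage comparisons (limma, adjusted p = 0.779 in WT and 0.263 in KO) and for the interaction (0.0665). mt-Ta is 69 bases long, and from a missing transcript alone the RNA cannot be called absent. Its fitted changes are set by the pseudocount and are no measure of a fold change of the RNA. Its neighbour mt-Tn had 54.6 to 113 TPM in 5 libraries and was not in the assemblies of WT leptotene 2 and both KO zygotene libraries.

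mt-Th (histidine), mt-Ts2 (serine) and mt-Tl2 (leucine) follow one another between mt-Nd4 and mt-Nd5. All 3 were assembled in the 4 libraries with few unannotated single-exon transcripts, at 60.7 to 140 TPM. In the 4 libraries with many such transcripts, mt-Ts2 was in 0, mt-Tl2 in 1 and mt-Th in 2, at 35.3 to 56.7 TPM. These latter libraries also had 990 to 2664 summed scaled TPM of 5 erythroid markers, against 7.74 to 251 in the former, and their part in the result was not tested. mt-Tv (valine) had a value in 7 libraries, up to 8.21 TPM, mt-Tq (glutamine) in 6, at 3.83 to 23.6 TPM, and mt-Tr (arginine) in 2 WT libraries, at 3.07 and 3.45 TPM.

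**Figure D4:**
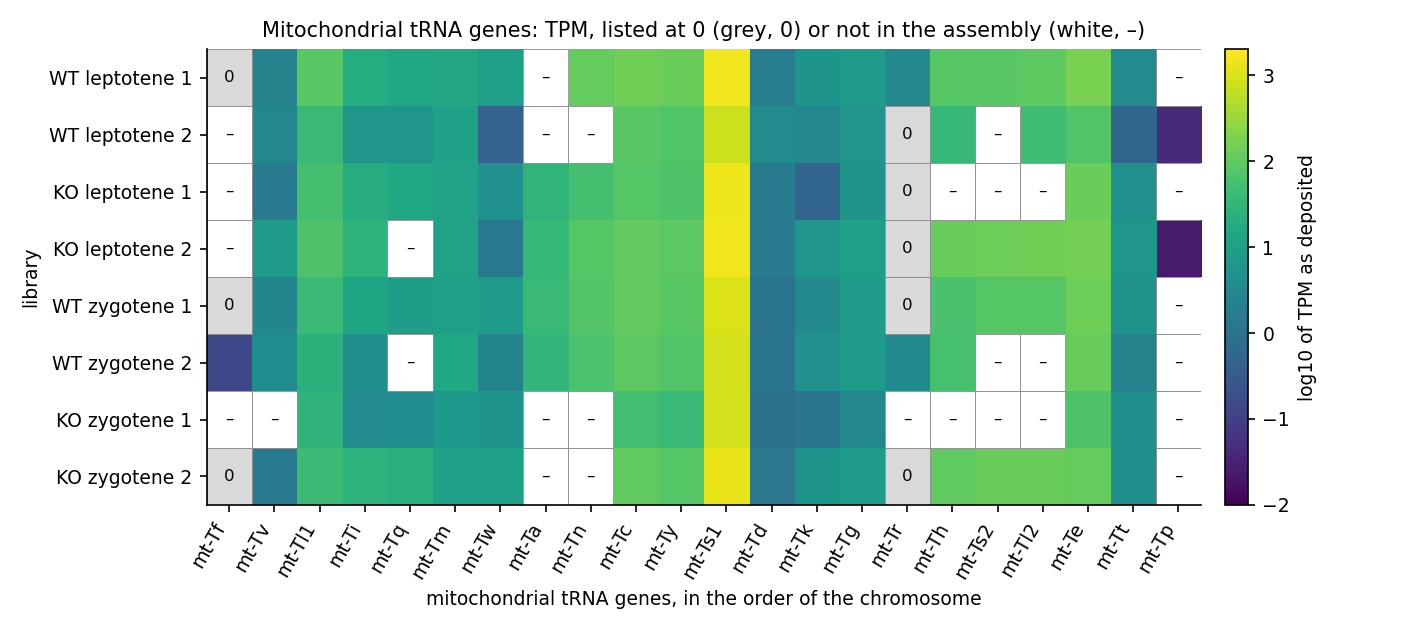
The 22 tRNA genes (columns, in the order of the chromosome) in 8 libraries (rows), coloured by the log10 of the TPM as deposited, with a grey 0 for genes listed at 0 and a white dash for genes not in the assembly of that library. mt-Ts1 is the brightest column in every row, and KO zygotene 1 has the most white fields, 9 of 22.

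Outside the 37 genes, each library held 1 unannotated transcript on chromosome MT, over the control region, which holds the promoters and carries no annotated gene apart from the flanking tRNAs. In 7 libraries it lay on the plus strand, beginning at position 15356 or 15359 and ending between 16285 and 16299, and in WT zygotene 1 on the minus strand, from 15726 to 16169. It had 89.2 to 203 TPM and 0.14% to 0.219% of the covered bases of the chromosome, without a difference by genotype that passed (exact permutation p = 0.314, adjusted p = 0.643). No unannotated transcript opposite an mRNA or rRNA was in any of the 8 assemblies.

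Parts of the mitochondrial sequence also stand in the nuclear genome as copies. 11 nuclear gene models, all annotated as pseudogenes, match 9 mitochondrial genes with at least 95% identity over at least 200 bases, and all 11 had a value in at least 1 library. 7 of them lie side by side on the minus strand of chromosome 1 (chr1:24611535-24616197, GRCm38) and match their mitochondrial gene in over 99% of bases. Gm10925, Gm28661, Gm28437, Gm28439 and Gm10222 have 0 mismatches to mt-Atp6, mt-Co2, mt-Co3, mt-Nd4 and mt-Nd4l over 678, 681, 783, 876 and 294 bases. Gm28438 and Gm29216 differ from mt-Nd3 and mt-Co1 by T3C and A1066T over 345 and 483 bases, as shown above. The 11 copies summed to 14062 to 32479 TPM in a library.

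The 4 copies that span nearly their whole mitochondrial gene without a mismatch had almost the same TPM as that gene. The ratio of mitochondrial to nuclear TPM was 0.995 to 0.999 for mt-Atp6, 0.992 to 1.01 for mt-Co2, 1.0 to 1.05 for mt-Co3 and 0.986 to 1.02 for mt-Nd4l over the 8 libraries. mt-Nd4, of which the copy holds 876 of 1378 bases, had ratios of 1.38 to 1.48, and mt-Co1, with 483 of 1545 bases in its copy, 6.19 to 10.1. Reads that fit both places equally well cannot be told apart, and the TPM listed for the copies does not show that the nuclear sequence is transcribed. mt-Nd3 had 0.937 to 0.962 times the TPM of Gm28438 in 6 libraries. In KO leptotene 1 and KO zygotene 2, where mt-Nd3 was listed at 0, Gm28438 stood at 324 and 327 TPM, so the 0 of mt-Nd3 does not show a missing RNA. With the copies added to their mitochondrial genes, the KO-to-WT ratios of shares were 0.802 for mt-Nd2, 0.776 for mt-Nd5, 0.833 for mt-Nd4, 0.716 for mt-Nd4l, 0.738 for mt-Nd6 and 1.05 for mt-Co1, each still without overlap and with an exact permutation adjusted p of 0.0571. The mean share of mt-Nd3 was then 0.837% in WT and 0.525% in KO. In KO leptotene 1 and KO zygotene 2 only the copy entered that sum, so the KO mean is lowered by the same zeros.

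**Figure D5:**
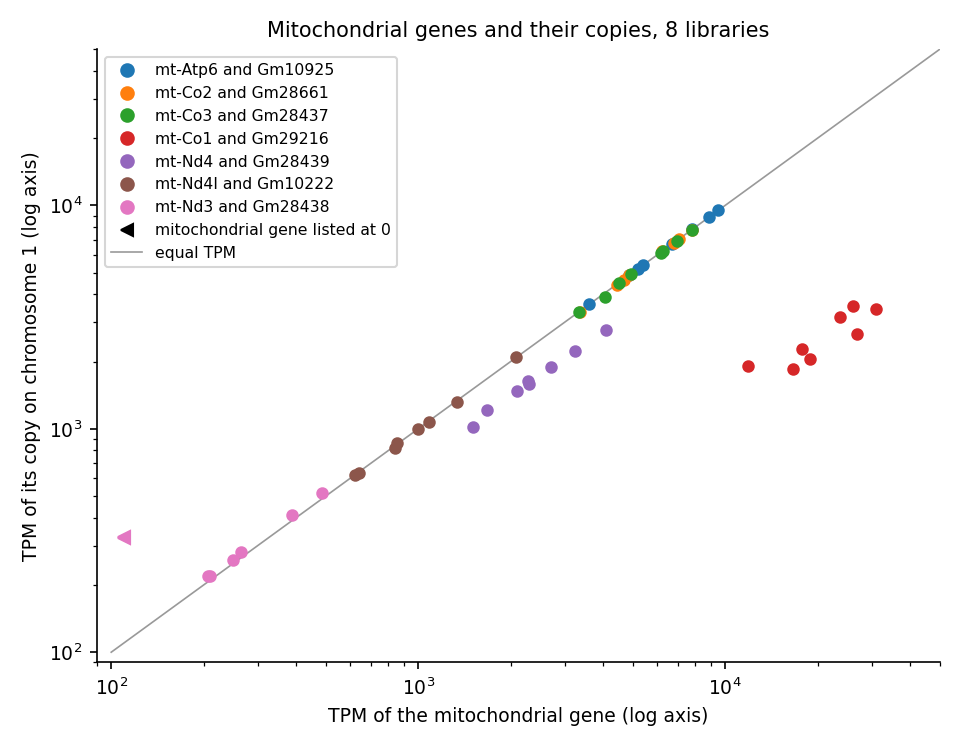
TPM of 7 mitochondrial genes (horizontal, log axis) against the TPM of their copies on chromosome 1 (vertical, log axis) in 8 libraries, with a grey line where the values are equal and triangles at the left edge where the mitochondrial gene was listed at 0. mt-Atp6, mt-Co2, mt-Co3 and mt-Nd4l lie on the line, mt-Nd4 and mt-Co1 to its right, where the copy holds only part of the gene.

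The mitochondrial genes are transcribed, processed and translated by proteins from nuclear genes, which were read from 6 lists of such genes. The counts below are for KO against WT averaged over both stages, where 8.82% of all genes were called (2.22% higher and 6.6% lower). They total 16 calls, of which 9 held when same-numbered libraries of a genotype were taken as pairs with an estimated correlation and 0 with the pairs as units (limma). Of 16 tested genes for transcription and replication of the mitochondrial DNA, 2 rose and 1 fell, with a median log2 change of 0.34 beside -0.06 for all genes. Polrmt, the mitochondrial RNA polymerase, rose by 0.85 ± 0.17 on the log2 scale (limma, adjusted p = 0.0235), with scaled TPM of 28 and 27.5 (WT) against 39.7 and 52.6 (KO) at leptotene, and 23.7 and 22.2 (WT) against 41.4 and 52.5 (KO) at zygotene. Tfam, which packages the DNA and starts transcription, changed by -1.14 ± 0.26 (limma, adjusted p = 0.0337), with scaled TPM of 14.9 and 18.8 (WT) against 4.8 and 8.98 (KO) at leptotene, and 14.8 and 15.1 (WT) against 6.13 and 7.19 (KO) at zygotene. KO and WT libraries were apart for both genes, in opposite directions, as they were for 17.7% of all genes on scaled TPM (10.7% lower and 7.01% higher). Both genes are named because they were called in these libraries, so this adds no support. Polg2, the accessory subunit of the DNA polymerase, changed by 1.66 ± 0.30 (limma, adjusted p = 0.0153).

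Of 23 genes for RNA processing and decay 2 rose and 0 fell (median 0.30). Grsf1, a protein of mitochondrial RNA granules that binds G-rich RNA such as that of mt-Nd6, had scaled TPM of 30.8 and 21 (WT) against 39 and 56.5 (KO) at leptotene, and 21.7 and 22.7 (WT) against 68.6 and 68.4 (KO) at zygotene and changed by 1.22 ± 0.19 (limma, adjusted p = 0.0103). Both KO libraries were above both WT libraries at each stage, which adds no support, since the gene is named for its call in these libraries. Lrpprc, which keeps mitochondrial mRNAs stable, changed by 0.76 ± 0.16 (limma, adjusted p = 0.0243). Of 20 genes for modification of rRNA and tRNA 1 rose and 1 fell (median 0.29). Nsun4, which methylates the 12S RNA, changed by -1.17 ± 0.24 (limma, adjusted p = 0.0225) with scaled TPM of 28 and 28.7 (WT) against 12.3 and 16.7 (KO) at leptotene, and 26.5 and 29.2 (WT) against 13.4 and 7.11 (KO) at zygotene. The 4 KO libraries were all below the 4 WT libraries, as for 10.7% of all genes on scaled TPM. Nsun4 too is named for its call in these libraries. Trit1, which modifies tRNAs next to the anticodon, changed by 0.98 ± 0.24 (limma, adjusted p = 0.0450).

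Of 30 translation factors and tRNA synthetases 1 rose (Vars2, for valine, 0.83 ± 0.21, limma, adjusted p = 0.0499) and 0 fell, with a list median of 0.34. Of 78 proteins of the mitochondrial ribosome 4 rose and 0 fell (median 0.29), namely Mrpl28, Mrps24, Mrps16 and Mrpl46, at 0.85 to 1.28. Of 78 nuclear subunits of complexes I, III, IV and V 2 rose and 2 fell (median 0.23). Those that rose were the complex I genes Ndufb9 (1.0 ± 0.19) and Ndufa11 (1.13 ± 0.29). Those that fell were Cox8c (-1.91 ± 0.27) and Cox7b2 (-0.91 ± 0.22), subunits of complex IV known from the testis. Within leptotene 0 members of these 6 lists were called (beside 1.32% of all genes) and within zygotene 1, Grsf1 (beside 0.868%). The calls are named one by one and are no result about a list.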

How the data were processed

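TRIzol was used to extract total RNA, per the labels' protocols, and all libraries were prepared together with the NEBNext Ultra Directional kit. Per the submitters' processing notes HISAT2, DESeq2 and the mm10 build were used, and per the file headers StringTie 2.1.2 assembled each library separately, guided by Ensembl release 89. Each deposited file lists transcripts with other values, namely coverage, FPKM and TPM as the authors' run of StringTie gave them. Read counts were not used here.

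A gene's TPM was the sum over its transcripts. Unannotated transcripts were assigned to the GENCODE M21 gene on their strand whose exons covered at least 50% of their exonic length. Libraries were scaled by the median of ratios, and log2(scaled TPM + 1) was fitted with limma 3.58.1 (R 4.3.3, intensity trend, 4 group means, 8 libraries, 4 residual degrees of freedom) over the 23031 genes that reached a TPM of 1 in 2 or more libraries. P-values were adjusted over all of them (Benjamini-Hochberg, threshold 0.05). Changes of low genes are understated by the pseudocount of 1. The pipeline was tested on simulated data. Ratios and shares per library were compared by two-sided exact permutation tests, adjusted within their families. Nuclear copies were found with BLAST 2.17.0 among M21 transcripts, not in the genome. All 37 mitochondrial genes are accounted for, and of each nuclear list up to 4 called members are named in order of adjusted p. The labels give the replicate numbers no shared source, and alternatives with and without pairs are given. The genes and lists were chosen with earlier results of these data known. Alternatives and measures added after the data had been seen are named as such.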

Additional observations from a re-analysis of the deposited data

Results flagged for a closer look

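One result was singled out because the KO effect at zygotene differed from that at leptotene by a test of the difference itself. It is the alanine tRNA gene mt-Ta, with an interaction of -10.14 on the log2(scaled TPM + 1) scale (limma, adjusted p = 0.00112, and 0.0665 with same-numbered libraries of a genotype as pairs and the pairs as units). The value is set by the pseudocount and is no measure of a fold change of the RNA, since mt-Ta was in the assembly of both KO leptotene and both WT zygotene libraries and of none of the other 4. Its neighbour mt-Tn, next to it on the chromosome, was missing from 3 assemblies, of which 2 were the KO zygotene libraries. Whether the RNA or its assembly differed was not tested.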

How the results depend on the processing

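The direction of mt-Rnr1 was lower in KO under all alternatives tried, at each stage and averaged, including 8 fits without 1 library. The number of mitochondrial genes called at leptotene was 2, and it was 1 with a pseudocount of 0.1, without a filter, with reference transcripts only or without an intensity trend, 0 with only the libraries of the comparison, and 0 to 2 without 1 library. At zygotene it was 1, and it was 0 without a filter or with only the libraries of the comparison, 2 with a minimum TPM of 5, with FPKM or with a covariate for the unannotated single-exon share (added after the data had been seen), and 0 to 2 without 1 library. Between stages it was 1 in each genotype. In WT it was 0 with a pseudocount of 0.1, no filter, reference transcripts only, only the libraries of the comparison or the covariate, and 0 to 1 without 1 library. In KO it was 0 with no filter or with only the libraries of the comparison, and 0 to 2 without 1 library. For the average and for the interaction it was 1, and 1 to 2 without 1 library. Over all genes, calls at leptotene ranged from 0 to 880 (305 as reported), at zygotene from 0 to 803 (200) and for the average from 144 to 2789 (2031), and from 497 to 1827 without 1 library. The cause was not tested. With groups left at 1 library, that library is assumed to vary like the other groups.

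The replicate numbers share no stated source. With the replicate number as a block across genotypes and stages, 1 mitochondrial gene was called at leptotene, 0 between stages in WT and 0 in KO, and mt-Rnr1 had an adjusted p of 0.0803 at leptotene and 0.0133 averaged (limma). In the summary measures a test within 4 pairs cannot go below 0.125, which the 12S to 16S ratio reached. Same-numbered libraries went together within a genotype and not between genotypes, so a replicate block within genotype was added after the data had been seen. With an estimated correlation, 1249 of the 2031 averaged calls remained. With the pairs as units, 144 genes were called, 141 of them among the 2031, and the mitochondrial genes called were 0 between stages in WT, 0 in KO, 0 for the interaction (mt-Ta, adjusted p = 0.0665) and 1 for the average (limma). That 1 was mt-Nd3 (adjusted p = 0.0347) in place of mt-Rnr1 (0.0542). mt-Nd3 was listed at 0 in 1 library of each KO pair, so the pair means are set by the pseudocount. Of the called markers of pachytene cells and spermatids, spermatogonia and macrophages, 11 of 12, 6 of 7 and 3 of 5 remained with the correlation and 7, 1 and 1 with pairs as units.

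Complex I mRNAs near 0 changed sign in the averaged comparison. Without 1 library, mt-Nd2 ranged from -0.27 to 0.46, mt-Nd4l from -0.49 to 0.42, mt-Nd4 from -0.25 to 0.52, mt-Nd5 from -0.25 to 0.34 and mt-Nd6 from -0.43 to 0.39, the lowest without WT leptotene 2 and the highest without WT leptotene 1. With reference transcripts only, mt-Nd4l was at 6.78e-05 and mt-Nd6 at 0.0208. mt-Nd5 was at -0.0477 with TPM as deposited, and mt-Nd6 at 0.0199 with the covariate. With the chromosome 1 copies added, the share of mt-Atp8 was 0.00358 percentage points higher in KO rather than lower. The rRNA share of the library differed between KO and WT by -0.00034 percentage points among the 4 libraries with few unannotated single-exon transcripts and by 0.148 among the other 4, and the unannotated share of the chromosome by 0.0590 and -0.0134. With reference transcripts only, the latter gives no value.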
